A study of Mus musculus with 2 samples.

Results

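Long intergenic noncoding RNA (lincRNA) probes made up 16251 of the 55681 non-control probes of the array, or 29.2%. They were chosen by the text lincRNA in the gene name, systematic name or description that the array design gives a probe, without use of any signal. Each is a designed DNA sequence of 60 bases with 1 spot per array. Most take their name from a stretch of the mouse genome (build mm9) and a strand. The names cover 3555 stretches, called regions here, of which 1067 carry probes for both strands and 2488 for a single strand, giving 4622 region-and-strand groups of 1 to 10 probes (median 3). After merging overlaps the regions fell on 2231 separate loci, so not all regions are separate places. Probes of 1 region can share a target, though they need not, and are not treated as independent. A further naming applies to 57 of the probes, which carry 1 of 12 transcript names such as TUG1 or XIST. Regions ran from 62 bases upward, with a median of 7328 bases, 8199 probes read the forward and 8052 the reverse strand, and 118 had no genome position in the files.

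The RNA came from microglia sorted from the mouse spinal cord. There was 1 control sample, titled normal, and 1 sample labelled atopic diathesis, titled activated, an allergy-prone state. How that state was produced, the strain, the age and the number of animals per sample are not given in the sources used here. Each sample was hybridised to 1 array of the same slide, so array position and group cannot be told apart, and with 1 array per group there is no replicate check and no test. All differences therefore compare these 2 arrays and not the conditions. In such bulk RNA, fewer cells of a type and less RNA per cell cannot be told apart.

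LincRNAs are transcribed from DNA between protein-coding genes, are often spliced and polyadenylated like messenger RNA, and carry no long open reading frame. Many act in the nucleus: NEAT1 is the scaffold of paraspeckles, NEAT2 (Malat1) gathers in nuclear speckles, and XIST coats the inactive X chromosome. As a class they are known for low levels and for cell type specific transcription. Microglia, the resident macrophages of brain and spinal cord, change their transcription broadly on activation.

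The probes on which the TUG1 result turns are shown first, because 5 of them lie end to end on 1 transcript. TUG1 is a conserved noncoding RNA with a part in retinal development. The sequences here and below are written 5′ to 3′ as the array files give them, in lower case, with mm9 position and strand.
TUG1, chr11:3540203-3540262, minus strand: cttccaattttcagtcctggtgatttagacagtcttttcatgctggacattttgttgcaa
TUG1, chr11:3540263-3540322, minus strand: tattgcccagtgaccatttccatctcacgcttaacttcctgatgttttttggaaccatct
TUG1, chr11:3540323-3540382, minus strand: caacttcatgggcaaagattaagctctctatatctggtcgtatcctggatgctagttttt
TUG1, chr11:3540383-3540442, minus strand: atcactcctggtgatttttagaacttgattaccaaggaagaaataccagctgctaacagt
TUG1, chr11:3540443-3540502, minus strand: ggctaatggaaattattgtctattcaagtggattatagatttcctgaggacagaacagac

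NEAT1 and NEAT2, neighbours on chromosome 19, are the named transcripts whose probes were all measured, and the NEAT1 probes are shown for comparison with TUG1.
NEAT1, chr19:5842534-5842593, minus strand: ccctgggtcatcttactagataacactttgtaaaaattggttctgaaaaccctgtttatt
NEAT1, chr19:5842594-5842653, minus strand: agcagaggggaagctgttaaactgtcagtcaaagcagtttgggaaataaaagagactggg
NEAT1, chr19:5842654-5842713, minus strand: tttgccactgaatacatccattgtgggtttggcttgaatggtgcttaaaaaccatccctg
NEAT1, chr19:5842726-5842785, minus strand: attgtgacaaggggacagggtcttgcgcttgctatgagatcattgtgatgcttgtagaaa
NEAT1, chr19:5842786-5842845, minus strand: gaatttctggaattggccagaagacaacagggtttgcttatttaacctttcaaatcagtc

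The following probes had differences among the lowest and highest that neighbouring probes of their region shared, or bright signal on 1 array alone across a group of neighbouring probes. They are named by position because they carry no gene name.
chrX:98674780-98674839, minus strand: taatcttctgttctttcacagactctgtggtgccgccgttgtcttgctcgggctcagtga
chr17:71245856-71245915, minus strand: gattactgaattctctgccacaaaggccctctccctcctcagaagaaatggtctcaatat
chr13:28511259-28511318, minus strand: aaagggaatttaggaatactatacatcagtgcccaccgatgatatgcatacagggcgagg
chrX:12760413-12760472, plus strand: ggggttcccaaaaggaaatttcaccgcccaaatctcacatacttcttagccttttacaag
chr10:66629128-66629187, plus strand: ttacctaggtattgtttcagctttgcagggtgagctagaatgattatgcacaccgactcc
chr6:131272426-131272485, plus strand: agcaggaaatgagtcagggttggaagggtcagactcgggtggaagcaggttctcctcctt
chr16:23994821-23994880, minus strand: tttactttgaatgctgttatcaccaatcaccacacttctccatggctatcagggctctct

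The next pairs of probes lie on opposite strands of 1 place and are shown because each pair reads both strands of the same DNA. Capitals mark the bases that are complementary between the members of a pair, 46 bases in the pair on chromosome 1 and 38 bases in the pair on chromosome 10.
chr1:139796194.0-139796253.0, minus strand: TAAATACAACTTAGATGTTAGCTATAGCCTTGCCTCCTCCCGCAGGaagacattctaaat
chr1:139796208.0-139796267.0, plus strand: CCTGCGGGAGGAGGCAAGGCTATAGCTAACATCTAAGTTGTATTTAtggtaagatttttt
chr10:93906618.0-93906677.0, plus strand: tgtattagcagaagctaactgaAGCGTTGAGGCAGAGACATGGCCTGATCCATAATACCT
chr10:93906640.0-93906699.0, minus strand: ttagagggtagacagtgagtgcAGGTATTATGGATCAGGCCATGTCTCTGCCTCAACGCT

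The signal reported is the processed fluorescence intensity of a spot, with background subtracted by the scanner software. A probe counted as detected where that software marked it well above background, and as measured where that held on both arrays. The lowest signal so marked was 19.8 in control and 18.2 in atopic diathesis. Saturation was marked for 0 spots. Differences are log2 atopic diathesis minus log2 control, set so that the median of all 11266 measured probes is 0. From 103 probes printed several times, the spot-to-spot SD of such a difference was 0.21, so 95% of differences between single spots of equal RNA would lie within ±0.41 from spot error alone. That figure covers no animal, RNA or labelling error. A difference of at least 2-fold, or 1 on the log2 scale, was counted as past the threshold.

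All 10 microglial marker genes were measured on both arrays, none of them past 2-fold, and their summed signals were 167675 (control) and 151634 (atopic diathesis). Of the markers of other cells, 2 of 6 astrocyte and 1 of 6 neuronal genes (Snap25) were detected on each array, 3 and then 5 of 6 oligodendrocyte genes (1 of the 3 measured ones at least 2-fold higher, median 0.56), 2 of 4 endothelial genes on each, and 1 of 7 T and B cell genes. Of the 4 monocyte and neutrophil genes on the array 0 were detected, and 1 of 3 mast cell genes was in atopic diathesis alone. The summed signals, control before atopic diathesis, were 804 and 786 for astrocytes, 82183 and 84050 for neurons, 966 and 1243 for oligodendrocytes, 466 and 244 for endothelium, 409 and 352 for T and B cells, 28.6 and 84.6 for mast cells, and 24.2 and 23.1 for monocytes and neutrophils. The part of these cells in the lincRNA values was not tested.

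Detection of lincRNA probes was low on both arrays. Of the 16251 probes, 2502 (15.4%) were well above background in control, where the share over all probes was 24.1%. In atopic diathesis 2934 (18.1%) were, beside 27.6% of all probes. On both arrays 1955 (12.03%) were measured, beside 20.2% of all probes. The control array alone showed 547 lincRNA probes (3.37%, beside 3.89% of all probes), and the atopic diathesis array alone 979 (6.02%, beside 7.41%). The remaining 12770 lincRNA probes, 78.6%, were above background on neither array. Probes of protein-coding messenger RNAs, taken as the 26536 probes with a RefSeq accession starting NM_, were detected at 29.5% in control, 34.3% in atopic diathesis and 24.9% on both. The share was thus 1.92 times that of lincRNA probes in control and 1.90 times in atopic diathesis, and both classes had the higher share on the atopic diathesis array.

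Counted by region and strand, 1428 of 4622 groups (30.9%) had at least 1 detected probe in control and 1586 (34.3%) in atopic diathesis. Few groups had all their probes measured, where 12.03% of single lincRNA probes were. No like counts by group are given here for NM_ accessions, so these counts are not set apart from those of other probes. Among 3932 groups with several probes, 1038 had at least 1 measured probe, 121 had all of them measured, and 646 had a single measured probe. No probe of 2806 groups (60.7%) was detected on either array. The median signal over the measured lincRNA probes was 116 (control) and 110 (atopic diathesis), with quartiles of 49.1 and 398 in control and of 46.9 and 371 in atopic diathesis.

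Base composition moved with detection more in lincRNA than in messenger RNA probes. Of the lincRNA probes with 35% to 40% G and C, 8.15% were measured, against 9.57% at 45% to 50%, 17.6% at 50% to 55% and 26.3% of the 2042 probes at 55% or more. In NM_ probes the same classes ran from 24.7% at 35% to 40% to 29.9% at 55% or more. Probes of at least 55% G and C were 12.6% of lincRNA probes and 27.5% of the measured ones, whereas the shares for NM_ probes were 8.89% and 10.66%. Of the GC-rich measured lincRNA probes, 202 (37.5%) fell in the dimmest quintile of signal, against 26.0% of GC-rich measured NM_ probes and 31% of all measured lincRNA probes. Their differences were also narrow, with an SD of 0.81 and 13.2% past 2-fold, against an SD of 1.31 and 32.8% past 2-fold among lincRNA probes below 55%. For NM_ probes the SD was 1.30 with 32.8% past 2-fold at 55% or more, and 1.47 with 40.6% below 55%. The part of base composition in detection and in the spread of differences was not tested.

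Position within the region moved with detection too. LincRNA probes within 100 bases of the region's 3′ end were measured in 8.07% of cases, those 1000 to 3000 bases away in 11.9%, and those beyond 30000 bases in 17.3%. Regions under 1000 bases long had 7.98% of their probes measured, those of 30000 to 100000 bases 14.5% and those of at least 100000 bases 13.8%. Probes of a short region can only lie near its 3′ end, and distance and length were not taken apart. No like values are given here for NM_ probes. The region's ends are those in the probe name and need not be the ends of a transcript.

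Among the 1955 measured lincRNA probes the differences were centred near 0, with a median of -0.04, an SD of 1.19 and a range from -7.19 to 5.18. At least 2-fold higher in atopic diathesis were 267 (13.7%, beside 17.6% of all measured probes), and at least 2-fold lower were 269 (13.8%, beside 16.3%). Past 2-fold in either direction were 27.4% of lincRNA probes, 39.7% of the 6616 measured NM_ probes and 33.9% of all measured probes. At the threshold, the lincRNA probe just inside stood at 1.002 on the higher side and -1.01 on the lower side, and that just outside at 0.977 and -0.999. The near balance of higher and lower probes depended on the scaling. With each array set to the 75th percentile of all its probes the counts were 165 higher and 510 lower (24.4% higher), and with quantile normalization 221 and 400 (35.6% higher), against 49.8% higher on the scale used here.

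The narrower spread of lincRNA probes held through most of the signal range. In the dimmest of 5 equal groups of measured probes, ordered by mean signal, 11.9% of 606 lincRNA probes and 26.6% of 1190 NM_ probes were past 2-fold. In the 3 groups between the dimmest and the brightest, from dim to bright, the lincRNA shares were 38.4%, 41.2% and 30.3%, below NM_ shares of 53.8%, 54.0% and 42.7%. In the brightest group the order turned, with 22.2% of 248 lincRNA probes and 17.8% of 1267 NM_ probes past 2-fold. The ratio of the SD of lincRNA probes to that of NM_ probes went from 0.756 in the dimmest to 1.13 in the brightest group.

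Probes detected on 1 array only have a bound in place of a fold: the bright signal over the higher of the dim probe's own signal and the lowest signal well above background on the dim array, on the same scale. Of the 979 lincRNA probes detected in atopic diathesis alone, 541 (55.3%, beside 59.8% of all such probes) were at least 2-fold higher. Of the 546 detected in control alone with a usable spot on both arrays, 263 (48.2%, beside 55.9%) were at least 2-fold lower. The others lay too close to the detection limit to give a bound of that size.

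The 12 named transcripts fell into distinct groups. All 5 NEAT1 and all 3 NEAT2 probes were measured, as were 4 of 5 TUG1 probes, 1 of 5 KCNQ1ot1 and 1 of 5 NRON probes. LincP21, known as a target of the p53 tumour suppressor, had 1 of 5 probes detected, in atopic diathesis alone (signal 23.5 in control and 34.8 in atopic diathesis). The lincRNA probes of BRN1-A, H19, HOTAIR, PINC, TSIX and XIST were detected on neither array, though 1 probe named H19 by gene was detected in control alone (22.3 and 11.5). H19 is an imprinted fetal transcript, HOTAIR lies in the HOXC cluster, and TSIX is the antisense partner of XIST. The highest signal among the XIST probes was 11.5 and among the TSIX probes 16.2.

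TUG1 had the widest change of the named transcripts. Its probe at chr11:3540203-3540262 read 30.3 in control and 393 in atopic diathesis, that at chr11:3540263-3540322 read 55.1 and 518, and that at chr11:3540323-3540382 read 79.5 and 503. The probe at chr11:3540383-3540442 read 47.3 and 112. The last, at chr11:3540443-3540502, read 17.7, which was not well above background, and 32.8. All 5 were higher in atopic diathesis. The differences were 3.73, 3.26, 2.69 and 1.28 for the measured probes, in their order along the chromosome, and the last was at least 1.69-fold higher. Over the 4 measured probes the difference became smaller with distance from the 3′ side of the transcript, which runs on the minus strand.

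Other probes named Tug1 by gene, which are no lincRNA probes by name, lie further along the same stretch of chromosome 11. The one at chr11:3540471-3540530, which overlaps the last TUG1 probe, read 14.2 in control and 23.6 in atopic diathesis and was detected in atopic diathesis alone. The one at chr11:3542143-3542202 was detected on neither array (5.30 and 6.26). The one at chr11:3544194-3544253 read 46.2 in control and 4.90, not well above background, in atopic diathesis, at least 2.49-fold lower. Probes of this transcript thus differed in opposite directions along its length, and those that were higher in atopic diathesis lay toward its 3′ side.

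Those NEAT2 probes that are described here had close and small differences. They read 7907 and 12957 in control and 11424 and 16884 in atopic diathesis, that is 0.56 and 0.41 higher on the log2 scale. A probe named Malat1 at the same 60 bases as the first of them read 7735 and 12164, a difference of 0.68. These separate spots of the same bases differed by less than the spot error. These were higher in atopic diathesis on the scale used here and none of them passed 2-fold. With each array set to the 75th percentile of all its probes, the second of them turned to -0.08.

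The NEAT1 probes did not move together. Those at chr19:5842534-5842593 and chr19:5842594-5842653 read 348 and 753 in control and 285 and 597 in atopic diathesis (-0.26 and -0.31). The next, at chr19:5842654-5842713 and chr19:5842726-5842785, read 1140 and 1811 and then 1264 and 2331 (0.18 and 0.39). The probe farthest from the 3′ side, at chr19:5842786-5842845, read 187 and 692, a difference of 1.92. Apart from the first 2 probes, which differed by less than the spot error, the difference along NEAT1 grew with distance from the 3′ side, the reverse of the order along TUG1. Of the 5 probes 1 passed 2-fold. On the scale of the 75th percentile of all probes, the values of 0.18 and 0.39 turned to -0.32 and -0.10, whereas such a shift of scale leaves the order of the probes as it is.

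The remaining named transcripts had a single measured probe each. KCNQ1ot1, an imprinted transcript that silences neighbouring genes on its chromosome, read 116 and 102 (-0.16), and NRON, a repressor of the transcription factor NFAT, read 23.0 and 28.1 (0.32). The direction of NRON was not settled, with -0.19 after quantile normalization, -0.18 on the scale of the 75th percentile of all probes and -0.02 in the deposited series table. The KCNQ1ot1 probes of the lincRNA set read the plus strand, whereas the array's probes named Kcnq1ot1 by gene lie on the minus strand and were below that mark on both arrays. The lincRNA probes of this name thus read the strand opposite to the gene's own probes.

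The lowest lincRNA difference was at chr4:21684757-21684816, minus strand, with 3756 in control and 25.2 in atopic diathesis, 146-fold lower (45.3-fold with normexp background correction and 38.0-fold without background subtraction). The neighbouring probe of the same region, at chr4:21684971-21685030, read 4297 and 20.3, not well above background in atopic diathesis, at least 208-fold lower (46.1-fold and 38.3-fold under the same alternatives). The size of such large folds thus rests on the background subtracted from the dim spot: all 16 highest and lowest named differences and all 10 highest named bounds were smaller under both alternatives, though none fell below 6.28-fold. The messenger RNA probe for Tstd3, 52 bases away on the same strand, read 2268 and 6.91. Both lincRNA probes and the nearby gene probe were thus bright in control alone or nearly so, and whether they read 1 transcript was not tested.

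On chromosome X, all 7 probes of the region at 98658045 to 98677545 were lower in atopic diathesis, 4 on the minus and 3 on the plus strand. The minus-strand probe at chrX:98674780-98674839 read 3002 and 50.5, 58.2-fold lower, and its neighbours read 749 and 41.7, 752 and 22.5, and 510 and 10.5. The plus-strand probes read 1251 and 49.1, 347 and 18.6, and 371 and 4.70. The nearest messenger RNA probe, Itgb1bp2, lay 26.7 kb away and was detected on neither array. The probes lie side by side or overlap, so they sample a single place on both strands.

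Other low probes had partners that went the same way in part. At chr17:71245856-71245915 the signals were 1461 and 27.8 (51.5-fold lower), and the adjacent probe read 360 and 4.68, whereas the other 3 minus-strand probes of the region, farther away, were detected on neither array. The Tgif1 messenger RNA probe, 52.2 kb away, read 204 and 1120, the opposite direction. On chromosome 2 the probes at chr2:175662190-175662249 and chr2:175662257-175662316 read 574 and 20.4 and then 905 and 28.0, and 4 further probes of both strands beside them were bright in control alone. At chrX:47915638-47915697 the signals were 1592 and 56.9 (27.4-fold lower), with 486 and 59.0 at the adjacent probe and 117 and 14.3 at the one after.

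At chr17:46990852-46990911 the neighbours disagreed. That probe read 1513 and 33.2, 44.6-fold lower, whereas 4 of the other 9 minus-strand probes were detected in atopic diathesis alone with signals of 53.4, 81.0, 52.9 and 148. The remaining 5 were detected on neither array. A single probe thus does not stand for its region.

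The highest lincRNA difference was at chr13:28511259-28511318, minus strand, with 31.3 in control and 1108 in atopic diathesis, 36.2-fold higher. The other 2 probes of that region were detected in atopic diathesis alone, with 4.67 and 195 and with 4.41 and 566. All 3 probes were therefore higher in atopic diathesis, and the nearest messenger RNA probe was 268 kb away. At chr17:6355284-6355343 the signals were 21.2 and 644 (31.0-fold higher), whereas the nearest probe of the same region and strand read 286 and 91.5 (-1.62).

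A region on chromosome X, at 12758189 to 12760546, had 3 plus-strand probes, all measured and all higher. They read 99.4 and 975, 110 and 2256, and 136 and 2350, with differences of 3.32, 4.39 and 4.14. The nearest messenger RNA probe, Usp9x, was 21.7 kb away on the same strand and was detected in atopic diathesis alone (4.90 and 33.5). On chromosome 4, 4 plus-strand and 4 minus-strand probes at 123572090 to 123581365 were all higher, from 28.2 and 615 at chr4:123580789-123580848 (22.3-fold) to probes that were above background in atopic diathesis alone. A probe on chromosome 18 at 32392023 read 40.7 and 745 (18.7-fold higher), and the other 2 probes of its region were detected in atopic diathesis alone.

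On chromosome 12 a narrow stretch stood out within longer regions of both strands. The plus-strand probe at chr12:103157521-103157580 read 67.3 and 1976 (4.91) and the minus-strand probe at chr12:103157574-103157633 read 61.7 and 1563 (4.69). The other measured probes of these regions, all nearby, had differences from -0.21 to 1.43. A further 4 were detected in atopic diathesis alone, with signals there from 212 to 526. These probes lay 0.376 and 0.323 kb from an Atxn3 messenger RNA probe that read 8.85 and 23.4.

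Among probes detected in atopic diathesis alone, the highest bounds were at chr8:91569542-91569601 (4.72 and 1342, at least 69.3-fold), chr16:23994821-23994880 (4.02 and 1287, at least 66.4-fold), chr2:158181576-158181635 (15.9 and 1281, at least 66.2-fold), chr10:66629128-66629187 (4.83 and 1110, at least 57.3-fold) and chr12:81218238-81218297 (4.78 and 773, at least 39.9-fold). Each had other probes of its region and strand that were above background in atopic diathesis alone. The chromosome 10 region had all 3 of its probes in that state, at 4.46 and 159, 4.83 and 1110, and 3.92 and 565. The other groups were mixed. The measured probe of the chromosome 8 group read 964 and 1140 (0.27), and those of the chromosome 16 group stood at 0.03 and 3.805. In the chromosome 12 group the probe at chr12:81222782-81222841 was detected in control alone (23.8 and 8.90). Further probes of the groups on chromosomes 2, 8, 12 and 16 were detected on neither array.

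The genes nearest to these regions differed among themselves. The chromosome 2 region lay 24.9 kb from a probe for Snhg11, a noncoding host gene of small nucleolar RNAs, on the opposite strand, which was detected on neither array (4.37 and 9.61). The chromosome 8 region lay 18.3 kb from a probe for Sall1, a transcription factor that maintains microglial identity, which read 8861 and 8085 (-0.10). The chromosome 16 region lay 29.7 kb from a probe for Bcl6, a transcriptional repressor, which read 27.0 and 362 (3.78). The chromosome 10 region lay 89.9 kb from a probe for Jmjd1c, a histone demethylase family member, which read 22.7 and 557 (4.65). The chromosome 12 region lay 9.22 kb from a probe for Zfp36l1, which binds AU-rich messenger RNA, at 8154 and 10557 (0.40). In these last 4 cases the lincRNA probe and the gene probe lay on the same strand, and whether a region is part of the gene's own transcript could not be read from these files.

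Among probes detected in control alone, the highest bounds after the chromosome 4 probe were at chr2:25783002-25783061 (1035 and 12.8, at least 55.7-fold lower), chr14:62254362-62254421 (986 and 17.0, at least 53.1-fold), chr1:63172912-63172971 (834 and 10.8, at least 44.9-fold) and chr6:131272426-131272485 (728 and 4.93, at least 39.2-fold). The chromosome 6 place had 4 such probes side by side, 2 on each strand, at 482 and 9.48, 728 and 4.93, 390 and 7.29, and 492 and 4.33. The other 6 probes of that region, farther away, were detected on neither array. The chromosome 1 probe had an adjacent partner at 383 and 5.78, whereas a probe farther along the same region read 24.5 and 46.3 (0.95).

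Among the 5 probes with the highest signal on both arrays, those described here differed by less than 2-fold. The probe at chr11:60731875-60731934 read 60067 and 59130 (0.01), and that at chr1:74115646-74115705 read 18001 and 17909 (0.02). Beside NEAT2, a probe at chr19:5795752-5795811 that overlaps its probes read 15831 and 22901 (0.56). Neighbouring probes did not share the high signal on chromosomes 11 and 1. Both of these bright probes hold a run of alternating C and A bases, and the part of that run in their signal was not tested. The other 4 minus-strand probes of the chromosome 11 region, the nearest of them directly adjacent, read between 4.28 and 14.1 on the 2 arrays, and none of the other plus-strand probes of the chromosome 1 region was above background.

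Across regions, probes of 1 region and strand tended to differ in the same direction, though not always. Of 392 groups with at least 2 measured probes, 242 (61.7%) had them all on 1 side of 0. The SD within groups was 0.79 where that over all these probes was 1.29. For NM_ accessions with several measured probes the values were 65.2% of 776 groups, an SD within groups of 1.02 and a total SD of 1.39. The group sizes differ: with exactly 2 measured probes the shares were 67.7% of 195 lincRNA groups and 68.1% of 687 NM_ accessions, and with at least 3 they were 55.8% of 197 and 42.7% of 89.

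Groups in which every one of at least 3 measured probes passed 2-fold in 1 direction were picked out after the values were seen. Of the 197 lincRNA groups of that size, 14 (7.11%) were higher throughout, beside 4.9% of all groups of that size with NM_ accessions included, and 13 (6.6%) were lower throughout, beside 6.29%. These lay at 11 and 12 separate loci. Among 89 NM_ accessions of the same size, none was higher and 5 were lower throughout. Lowest by median after the chromosome X region was a group on chromosome 10 at 93774693 to 93893616, plus strand, whose 3 probes read 4634 to 6919 in control and 371 to 450 in atopic diathesis (-3.98 to -3.33). On chromosome 16, at 43623581 to 43642715, 3 probes 8.66 kb or more from a probe for Tigit, an immune checkpoint receptor, read 26.2 to 28.6 and then 168 to 380 (2.62 to 3.89).

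Other such groups lay at short and at long distances from the nearest messenger RNA probe. All 5 probes of a minus-strand region on chromosome 10 at 96082444 to 96096696, 0.564 kb from a probe for the antiproliferation gene Btg1, were higher by 1.22 to 1.87. All 5 of a plus-strand region on chromosome 1 at 87419050 to 87452625, 21.1 kb from a probe for the nuclear body gene Sp110, read 21.3 to 186 in control and 138 to 700 in atopic diathesis (1.94 to 2.73). A second group on the minus strand nearby, at 87374975 to 87412500 and 97.8 kb from the Sp110 probe, was higher by 1.90 to 2.17. On chromosome 1 at 165 kb from a probe for Ptprc, the gene of the leukocyte antigen CD45, 3 minus-strand probes were higher by 2.65 to 2.81 and 3 plus-strand probes by 2.46 to 2.90. These were 3 of 10 minus-strand probes of that region, and the others were detected on neither array. The 3 plus-strand probes are complementary to the 3 minus-strand ones over 46 to 56 bases each, so both groups read largely the same bases.

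Where a region was probed on both strands, detection of a single strand was more frequent than detection of both under the rule used here. With the looser rule of signal significantly above background the order turned, with both strands detected on both arrays in 667 of 1067 regions. Of the 1067 regions probed on both strands, 269 had both detected in control, 289 in atopic diathesis and 195 on both arrays. A single strand was detected in 319 regions in control, in 359 in atopic diathesis and in 322 on both arrays, and 550 had neither strand measured. Of the 195, 127 (65.1%) had both strands' median differences on the same side of 0, and the Pearson correlation over the 195 regions was 0.53. These regions share their probes' arrays and in part their bases. As examples chosen by signal, the chromosome 19 region that spans NEAT1 and NEAT2 had differences from -1.26 to 0.79 over 7 measured plus-strand probes. These probes lie opposite NEAT1, and none of the region's plus-strand probes lies opposite NEAT2. A region on chromosome 11 at 19778600 to 19815950 read 5852 and 3661 on the plus strand and 13278 and 8674 on the minus strand (-0.65 and -0.58).

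Agreement between strands was closest where probes overlapped. The array held 1826 pairs of lincRNA probes on opposite strands that are complementary over at least 30 bases, and both were measured in 177 of the 347 pairs with either measured (51.0%). In those 177 pairs 139 lay on the same side, the correlation of the differences was 0.92 (Spearman 0.83), and the median gap was 0.20. Of the pairs of lincRNA probes on the same strand that share at least 30 bases, both were measured in 88 of 113 with either measured (77.9%), with a correlation of 0.95 and a median gap of 0.21. Opposite-strand partners were thus measured together in a smaller share of pairs, and where both were measured their differences lay about as close. The pairs share bases, region and arrays, so these correlations describe them and carry no p-value.

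In the chromosome 1 pair shown above, the minus-strand probe read 1285 in control and 8802 in atopic diathesis (2.81) and the plus-strand probe 609 and 3906 (2.71). In the chromosome 10 pair, the plus-strand probe read 2314 and 813 (-1.48) and the minus-strand probe 2692 and 1054 (-1.32). Both strands gave the same direction and nearly the same size in each pair. The origin of the signal on each strand was not tested.

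The same closeness was seen with messenger RNA probes. LincRNA probes complementary to an NM_ probe over at least 30 bases formed 51 pairs, of which 27 had both measured, 26 on the same side, with a correlation of 0.98 and a median gap of 0.21. Of the 50 lincRNA probes in these pairs 56.0% were measured, and of the 39 that share at least 30 bases with an NM_ probe on its own strand 38.5% were, against 11.8% of the other 16162. Though named as intergenic, these probes hold bases that lie in or opposite a messenger RNA.

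Within 1 kb the difference of a lincRNA probe went with that of the nearest messenger RNA probe, and hardly so within 10 kb. The median distance from a mapped lincRNA probe to the nearest NM_ probe was 33207 bases. Within 1 kb, 42.6% of lincRNA probes were measured where the neighbour was measured and 9.66% where it was not. In the 60 measured pairs, which involve 22 neighbours, the correlation of differences was 0.78. It was 0.90 over 36 opposite-strand pairs with 17 neighbours and 0.28 over 24 same-strand pairs with 9 neighbours. The share of pairs on the same side of 0 was 66.7% for each strand. Within 5 kb the correlation was 0.26 on the opposite and 0.34 on the same strand, so no strand preference is read from these values. Within 10 kb the shares measured were 17.2% and 11.4%, and over 212 pairs the correlation was 0.11 with 115 (54.2%) on the same side. Of the 6127 lincRNA probes over 50 kb from any NM_ probe, 10.6% were measured. Pairs that share a neighbour are not independent, and the distances run between probes, not between transcripts. Pairs whose probes overlap were not left out, and their part in these correlations was not tested.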

How the data were processed

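Total RNA of sorted spinal cord microglia was amplified and labelled with Cy3, per the labels' protocols, and hybridised to 2 1-colour Agilent mouse arrays on the same slide. The deposited scanner files hold the fluorescence intensity of each spot on a linear scale, background-subtracted by Agilent Feature Extraction. Its version was 10.7.1.1 per the file headers and 9.5.1.1 per the submitters' processing notes. The deposited series table, also intensity, was used as an alternative. No spot counts or replicate arrays set an error, so the number of arrays limits the precision.

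The 3671 control spots and spots marked as outliers were left out, which left 2 lincRNA probes without a usable spot in control and 4 in atopic diathesis. Spots of a probe were averaged as log2 processed signal. The scale was the median difference over all 11266 probes well above background on both arrays, which was -0.03 before it was set to 0. No test was made. Coordinates, strands and probe sequences are those of the files (mm9), and no mm9 annotation was used, so exon, intron and UTR positions are not given. Gene names came from RefSeq (GRCm38.p6), which matched 27235 of 55681 probes, and otherwise from the files. Overlap between probes meant at least 30 shared or complementary bases.

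Named probes were the 8 highest and 8 lowest differences among measured probes whose brighter signal reached the median of measured probes, the 5 highest bounds in each direction, the 5 brightest probes and up to 5 bright regions measured on both strands. All transcripts with a name of their own were added, and members of region groups were added after their values were seen. A few of the probes so named are not reported here. The probe set, marker lists and comparisons were chosen with earlier results of these data known. Alternatives changed the scaling, the background correction, the detection rule, the threshold and the probes used. Python 3.11.15 (pandas 2.3.3, numpy 2.4.6, scipy 1.17.1) and R 4.3.3 with limma 3.58.1 were used, and the scripts were tested on simulated data.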

Additional observations from a re-analysis of the deposited data

How the results depend on the processing

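Detection depended most on the rule: the share of lincRNA probes was 45.6% in control and 54.2% in atopic diathesis for signal significantly above background, 11.4% and 13.6% for at least 2 times the lowest signal well above background, 30.9% and 34.3% per region and strand, and, in an alternative chosen after seeing the data, 13.1% and 16.2% without probes of at least 55% G and C. Both strands of a region were detected on both arrays in 667 of 1067 regions under the significance rule, against 195. Detection of both strands was then more frequent than detection of a single strand. Against 267 probes at least 2-fold higher and 269 lower, the counts were 165 and 510 (median -0.54) with the 75th percentile of all probes, 221 and 400 with quantile normalization, 163 and 179 with normexp background correction, 152 and 165 without background subtraction, 1112 and 672 for detection on at least 1 array, 2560 and 1171 with no filter, 92 and 92 at 4-fold, and 138 and 144 with the brightest probe of each region and strand. The ratio of lincRNA to NM_ spread turned from 0.823 to 1.13 in the brightest of 5 signal groups. It was 0.893 without probes of at least 55% G and C, an alternative chosen after seeing the data. Bounds of at least 2-fold fell from 541 to 230 (normexp) and 181 (no subtraction) in atopic diathesis alone, and from 263 to 101 and 78 in control alone. Of 46 named values, 7 that lay within 2-fold changed sign in 13 of 228 alternatives, 7 of them with the 75th percentile of all probes. Values past 2-fold changed sign in 0 of 146 alternatives and stayed past 2-fold in 142, but were smaller in 105. All 24 alternatives of named bounds were smaller, and the highest named bound was 46.1-fold with normexp and 38.3-fold with no subtraction. The highest TUG1 difference ran from 2.10 to 3.81. The cause of these shifts was not tested. No paired analysis was possible because each group holds 1 sample.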

Other observations

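Probes that the array names by a long noncoding RNA gene, and not as lincRNA, were set beside the lincRNA probes. They came from a list of 48 genes, of which 34 were on the array. Some of these genes also have lincRNA probes, among them Malat1 (NEAT2), Neat1, Tug1, H19, Xist, Tsix and Kcnq1ot1. The transcripts of the 2 sets thus overlap in part. Of these 34 genes, 11 were detected in control (beside 24.1% of all probes) and 16 in atopic diathesis (27.6%). A probe measured on both arrays was found for 9 (20.2%), of which 2 were past 2-fold upward (17.6% of measured probes) and 2 downward (16.3%). As a gene counted where at least 1 of its probes did, these counts of genes are not a like measure to the shares of single probes beside them. Snhg1, a host gene of small nucleolar RNAs, read 387 in control and 1283 in atopic diathesis (1.76), and Pvt1, next to Myc, read 47.9 and 130 (1.47) at 1 probe, with its other 2 detected on neither array. Snhg12, another such host gene, read 1009 and 326 (-1.60) at 1 of 2 probes, and Airn, the imprinted antisense transcript of Igf2r, read 362 and 94.9 (-1.90) at 1 of 4. The remaining probes of both were detected on neither array. Gas5, a growth arrest transcript, had probes on both sides of 0, at 0.70, 0.36 and -0.89. Norad, a cytoplasmic RNA that binds Pumilio proteins, had 1 probe measured (102 and 127), 2 detected in atopic diathesis alone (10.1 and 164, 4.43 and 26.7) and 1 in control alone (50.7 and 21.1). As with TUG1 and NEAT1, probes of a single named transcript could differ in direction on these 2 arrays.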
